A study of Mus musculus with 9 samples.

Results

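The genes described are the Notch receptors Notch1, Notch2 and Notch3, the ligands Dll1, Dll4, Jag1 and Jag2, and the target genes Hey1, Heyl and Hes1. They were chosen by gene symbol, which gave 10 of the 54532 genes measured, and all 10 passed the filter on low values. RNA was sequenced from mouse tibialis anterior, a muscle of the lower hind limb, taken after injury. There were 3 libraries each from old P311-/- mice, old wild-type mice of 24 months and young wild-type mice of 4 to 6 months. The P311-/- mice lack P311, the product of the gene Nrep, and are labelled old with no age in months. All 3 groups were injured, so no uninjured muscle serves as a baseline; how and how long before sampling is not given in the sources. Whether each library is a separate animal is not said in the labels, so a p-value here measures spread among libraries, which may be technical.

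Notch receptors sit in the cell membrane and are activated by ligands of the Delta-like and Jagged families on a neighbouring cell. Ligand binding exposes the receptor to ADAM proteases and then to gamma-secretase, which frees its intracellular domain to enter the nucleus, join the DNA-binding protein RBPJ and switch on genes of the Hes and Hey families. In skeletal muscle Notch signalling keeps satellite cells, the muscle stem cells, quiescent and undifferentiated. In blood vessels it takes part in sprouting, arterial identity and the coating of vessels by mural cells. A bulk library mixes all these cells, so fewer cells of a type and less RNA per cell cannot be told apart in any value below.

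Recovered reads per library ranged from 14222204 to 31910890. Nrep stood at 14.8, 6.37 and 9.72 FPKM (fragments per kilobase of gene, scaled to library size) in the P311-/- libraries, below every wild-type library (63.9 to 86.3 FPKM). Old P311-/- replicate 1 stood apart from replicates 2 and 3 of its group: its Euclidean distance to them over the tested genes was 86.0 and 81.9, against 59.6 to 69.95 to the old wild-type libraries. The main results on the P311-/- group are therefore also given without it, which leaves 2 libraries in that group. Mitochondrial genes made up 9.47% to 14.1% of old P311-/- reads, 13.2% to 17.6% of old wild-type reads and 8.79% to 10.7% of young wild-type reads, so the wild-type groups did not overlap in this share. Fibre genes were abundant, with Acta1, the skeletal muscle actin, at 16504 to 23424 FPKM over the 9 libraries. The satellite cell gene Pax7 was detected at 0.762 to 1.51 FPKM.

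On GRCm38, the build that the deposited positions match, the receptor genes are Notch1 (ENSMUSG00000026923) on chromosome 2 from 26457903 to 26516663, Notch2 (ENSMUSG00000027878) on chromosome 3 from 98013527 to 98150361 and Notch3 (ENSMUSG00000038146) on chromosome 17 from 32120820 to 32166880. The Delta-like ligand genes are Dll1 (ENSMUSG00000014773) on chromosome 17 from 15367354 to 15376872 and Dll4 (ENSMUSG00000027314) on chromosome 2 from 119325784 to 119335962, and the Jagged ligand genes are Jag1 (ENSMUSG00000027276) on chromosome 2 from 137081456 to 137116644 and Jag2 (ENSMUSG00000002799) on chromosome 12 from 112907819 to 112929776. The target genes are Hey1 (ENSMUSG00000040289) on chromosome 3 from 8663359 to 8667256, Heyl (ENSMUSG00000032744) on chromosome 4 from 123233556 to 123249875 and Hes1 (ENSMUSG00000022528) on chromosome 16 from 30064384 to 30067796. Each value is the whole gene's, over its annotated exons.

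Promoter sequences were available from RefSeq (GRCm38.p6) for 7 of the 10 genes, all except Hey1, Heyl and Hes1. Those of Notch1 and Notch2 are shown because these receptors had the smallest p-values among the 10 genes between old and young wild type. Each is the 250 bases before the RefSeq start on the strand of the gene, 5′ to 3′, with CG dinucleotides in capitals. The Notch1 window is chr2:26503823-26504072 on the minus strand and the Notch2 window chr3:98013288-98013537 on the plus strand, with 2 and 11 of their bases inside exons annotated in GENCODE M21.
Notch1: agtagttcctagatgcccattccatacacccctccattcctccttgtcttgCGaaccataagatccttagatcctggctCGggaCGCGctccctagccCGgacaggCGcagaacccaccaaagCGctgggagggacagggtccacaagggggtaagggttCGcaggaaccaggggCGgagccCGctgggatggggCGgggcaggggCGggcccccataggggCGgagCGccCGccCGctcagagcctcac
Notch2: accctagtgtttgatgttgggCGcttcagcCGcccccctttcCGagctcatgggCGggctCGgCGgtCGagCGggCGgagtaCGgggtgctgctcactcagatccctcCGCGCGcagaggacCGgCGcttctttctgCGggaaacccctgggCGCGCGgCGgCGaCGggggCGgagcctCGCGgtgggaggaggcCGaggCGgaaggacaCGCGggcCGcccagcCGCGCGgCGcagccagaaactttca
The windows hold 16 CG dinucleotides for Notch1 and 34 for Notch2, against a median of 6 over 32851 mouse promoters of this length. The count is above that of 74.6% of promoters for Notch1 and of 96.5% for Notch2. The core letters of RBPJ binding sites, TGGGAA or their reverse complement TTCCCA, occur in 21.6% of all these windows. They were in 0 of the 8 windows of the 7 genes (Dll1 has a pair), which says only that these letters are not in these 250 bases. Not all of these windows lie outside transcripts. Both windows of Dll1 and that of Jag2 lie wholly inside annotated exons, and those of Jag1 and Dll4 hold 124 and 31 exon bases. The Notch1 window lies inside the deposited span of its gene, 26457903 to 26516663.

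Levels of the 10 genes, set against each other per gene length, were low to moderate, and their order was similar in the 3 groups. Hes1, a transcriptional repressor, had the highest mean in each group, at 8.24 ± 0.0481 FPKM in old P311-/-, 9.08 ± 0.203 FPKM in old wild type and 7.91 ± 1.27 FPKM in young wild type (SD, n = 3 each). Jag2 came next in each group, and Notch1 came last in each, at 1.17 ± 0.253, 0.832 ± 0.166 and 1.49 ± 0.155 FPKM in old P311-/-, old wild type and young wild type (SD, n = 3 each). Between them stood Notch2, Notch3, Heyl, Jag1, Dll1, Dll4 and Hey1, with means of 1.58 to 5.55 FPKM. In old wild type the ranges of Notch3 and Notch2 overlapped, as did those of each neighbouring pair in the order Notch2, Dll1, Dll4, Jag1, Heyl and Hey1. Such overlap does not show that neighbours are equal, and no test between genes was run. Notch2, at 3.56 to 4.16 FPKM, met Dll1 only through replicate 3 of Dll1 at 4.18 FPKM, with replicates 1 and 2 at 2.01 and 1.87 FPKM. Hes1 and Jag2 overlapped in old P311-/- and in young wild type and not in old wild type. Reads per gene and library behind these levels ran from 68 for Hey1 to 1760 for Jag2. 

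**Figure D1:**
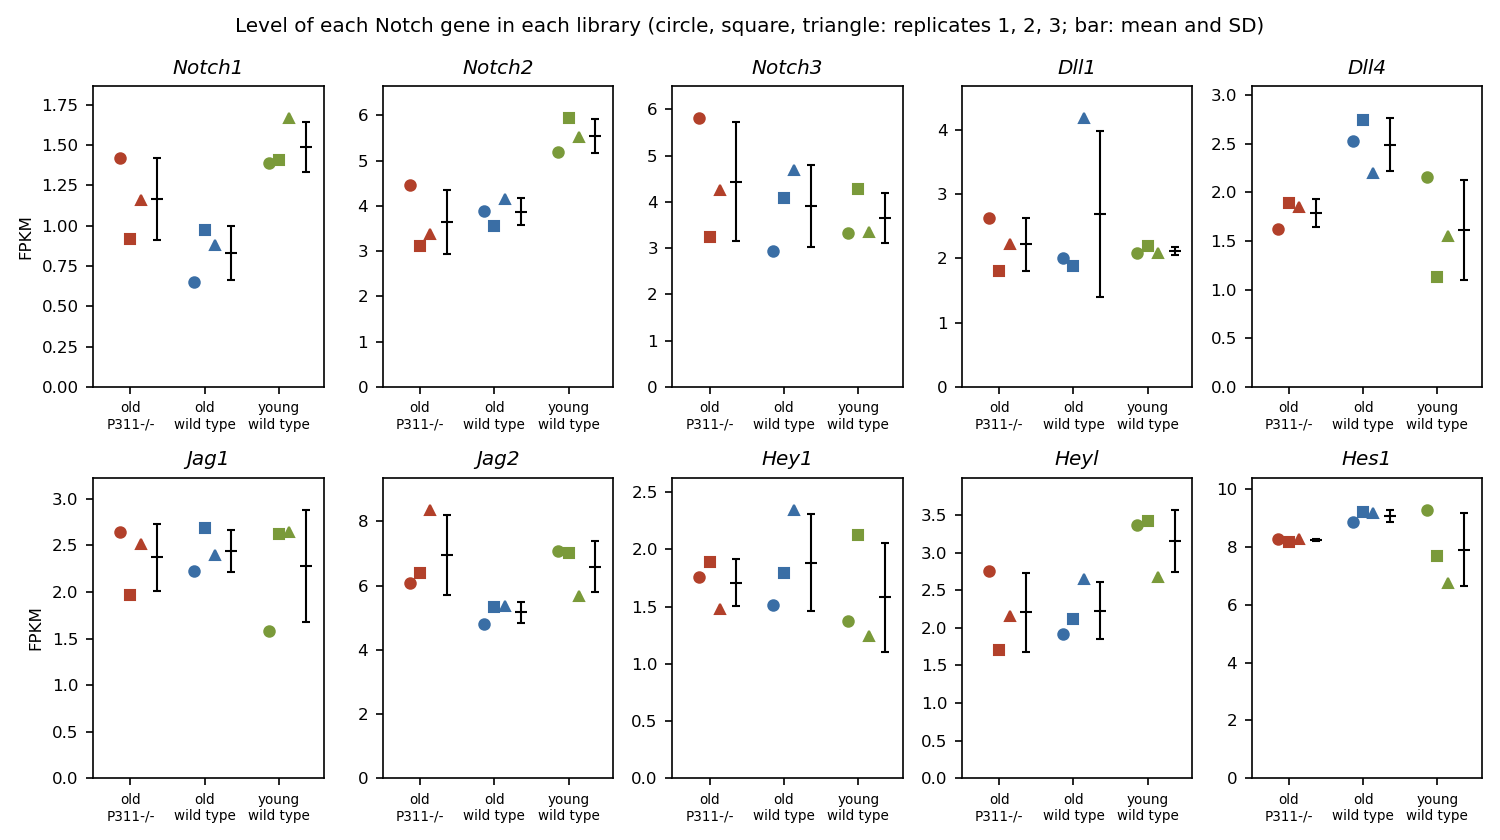
FPKM of each of the 10 genes (vertical axes, from 0) in each library of old P311-/-, old wild type and young wild type; circles, squares and triangles are replicates 1, 2 and 3, and the black bar is the mean with its SD (n = 3). Notch1 and Notch2 lie lower in all old wild-type libraries than in any young library, and Dll4 lies higher, while Dll1 is set apart in old wild type by replicate 3 at 4.18 FPKM.

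Among the receptors, Notch1 and Notch2 were lower in every old wild-type library than in any young one, and Notch3 was not. Notch1, a receptor of satellite cells and endothelium among other cells, stood at 1.42, 0.916 and 1.16 FPKM in old P311-/- replicates 1 to 3, at 0.648, 0.971 and 0.878 FPKM in old wild type and at 1.39, 1.41 and 1.67 FPKM in young wild type. The old P311-/- libraries spread from within the old wild-type range to within the young range, with replicate 1 the highest of them. The log2 fold change was -0.78 for old against young wild type (SE 0.23, limma adjusted p = 0.0713). For old P311-/- it was 0.44 against old wild type (SE 0.23, limma adjusted p = 0.359) and -0.34 in comparison with young muscle (limma adjusted p = 0.397). Without old P311-/- replicate 1 these were 0.30 and -0.49.

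Notch2 stood at 4.46, 3.11 and 3.38 FPKM in old P311-/- replicates 1 to 3, at 3.88, 3.56 and 4.16 FPKM in old wild type and at 5.19, 5.94 and 5.52 FPKM in young wild type. Both old groups lay wholly below the young one and overlapped with each other. The log2 fold change was -0.51 for old against young wild type (SE 0.15, limma adjusted p = 0.0750) and -0.61 for old P311-/- compared with young muscle (SE 0.15, limma adjusted p = 0.0998). Without old P311-/- replicate 1 the comparison with young muscle gave -0.75 and passed (limma adjusted p = 0.0065), beside 19.6% of all genes. Old P311-/- against old wild type gave -0.094, with a 95% interval of -0.43 to 0.24.

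Notch3, a receptor of pericytes and vascular smooth muscle among other cells, stood at 5.81, 3.25 and 4.25 FPKM in old P311-/- replicates 1 to 3, at 2.93, 4.09 and 4.68 FPKM in old wild type and at 3.33, 4.28 and 3.35 FPKM in young wild type. All 3 groups overlapped. The log2 fold change was 0.17 for old P311-/- against old wild type, with a 95% interval of -0.36 to 0.69, and 0.076 for old against young wild type, with an interval of -0.45 to 0.60. The first changed sign without old P311-/- replicate 1 (-0.043) and the second without old wild-type replicate 3 (-0.065). Notch4, the endothelial receptor and no member of the 10, had no difference past the threshold in any comparison. As a share of the summed FPKM of the 4 receptors, Notch3 took 37.2% to 43.2% in old P311-/- libraries, 34.7% to 40.0% in old wild-type libraries and 27.2% to 32.2% in young ones, so each old group lay above the young one in this share. The share of Notch1 was 10.5% to 11.4% in old P311-/- libraries, 7.52% to 9.40% in old wild-type libraries and 10.6% to 13.6% in young ones. These shares do not depend on how libraries are scaled, and they were chosen for description after the values were seen, so no test was run on them.

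**Figure D2:**
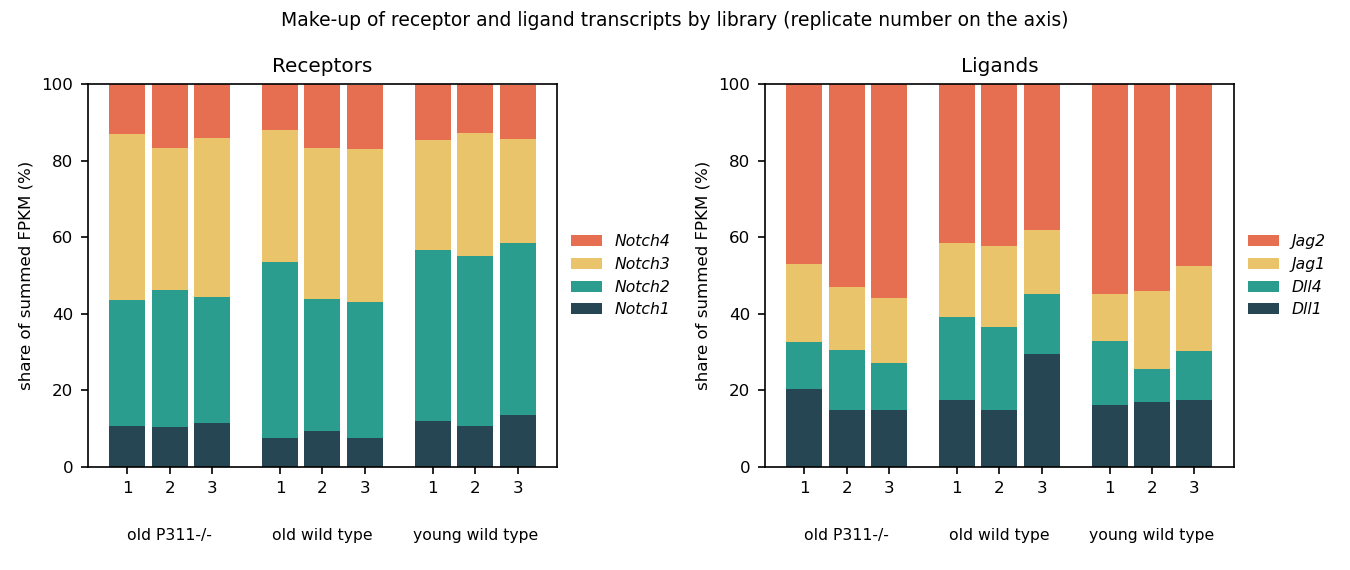
Share (%) of each gene in the summed FPKM of the receptors Notch1 to Notch4 (left) and of the ligands Dll1, Dll4, Jag1 and Jag2 (right), 1 bar for each library of old P311-/-, old wild type and young wild type. Notch3 takes at least 34.7% of receptor FPKM in every old library, against 27.2% to 32.2% in young wild type; Jag2 takes 46.9% to 56.0% of ligand FPKM in old P311-/-, against 38.0% to 42.2% in old wild type.

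The ligands Jag2 and Dll4 differed in opposite directions, and neither passed the test in the fit of all 9 libraries with equal weights. Jag2, a Jagged ligand, stood at 6.08, 6.40 and 8.36 FPKM in old P311-/- replicates 1 to 3, at 4.80, 5.34 and 5.37 FPKM in old wild type and at 7.09, 7.01 and 5.67 FPKM in young wild type. Every old wild-type library lay below every library of the other groups. The log2 fold change was 0.41 for old P311-/- against old wild type (SE 0.15, limma adjusted p = 0.269; 0.50 without replicate 1, limma adjusted p = 0.0677, and 0.57 with library quality weights, limma adjusted p = 0.0256) and -0.34 for old against young wild type (SE 0.15, limma adjusted p = 0.191). Old P311-/- compared with young muscle gave 0.068 (0.16 without replicate 1). The library quality weights were 0.27, 0.69 and 2.54 for old P311-/- replicates 1 to 3, so replicate 3, the highest in Jag2, counted most. With these weights 2720 of 14233 genes passed in old P311-/- against old wild type, in place of 10 with equal weights.

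Dll4, a Delta-like ligand of endothelial tip and arterial cells, stood at 1.62, 1.89 and 1.85 FPKM in old P311-/- replicates 1 to 3, at 2.52, 2.74 and 2.20 FPKM in old wild type and at 2.16, 1.13 and 1.55 FPKM in young wild type. Here every old wild-type library lay above every library of the other groups, by a margin over young replicate 1 of 2.20 against 2.16 FPKM. The log2 fold change was -0.46 for old P311-/- against old wild type (SE 0.22, limma adjusted p = 0.334; -0.39 without replicate 1) and 0.63 for old against young wild type (SE 0.22, limma adjusted p = 0.107). Old P311-/- compared with young muscle gave 0.18 (0.24 without replicate 1). The ratio of Jag2 to Dll4 FPKM within a library, which library scaling cannot move, was 3.75, 3.39 and 4.53 in old P311-/- replicates 1 to 3, 1.90, 1.95 and 2.44 in old wild type and 3.28, 6.18 and 3.66 in young wild type. This ratio was chosen after the values were seen and was not tested. Comparisons of old P311-/- with old wild type and of old with young wild type share the old wild-type libraries, so opposite signs in them are not independent.

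The summed FPKM of endothelial markers, set beside Dll4, overlapped between groups. The 10 genes summed to 68.0 to 85.6 FPKM in old P311-/-, 71.6 to 100.9 FPKM in old wild type and 74.3 to 79.6 FPKM in young wild type. By limma on all 9 libraries 0 of 10 passed in any comparison. In old P311-/- against old wild type, old against young wild type, and old P311-/- against young, 3, 2 and 0 had an unadjusted p under 0.05, beside 16.1%, 26.3% and 21.4% of all genes. In the first of these 1 was higher and 3 lower with no overlap, beside 8.64% and 9.39% of all genes. In the second 1 was higher and 1 lower, beside 19.0% and 18.1%. Without old P311-/- replicate 1, 1 passed as higher and 2 as lower against old wild type, beside 13.2% of all genes. No marker of that list was at 0. Of the 10, 8 had a log2 fold change below 0 in old P311-/- against old wild type and 7 had one above 0 in old against young wild type, and their part in the Dll4 values was not tested. Arterial endothelial markers summed to 5.30 to 8.02 FPKM in old P311-/-, 6.09 to 7.83 FPKM in old wild type and 5.22 to 6.18 FPKM in young wild type, and 0 of the 3 tested passed by limma. In old against young wild type all 3 were above 0 (median log2 fold change 0.25, 1 at an unadjusted p under 0.05). That 1 was Sox17, an arterial transcription factor gene, at 2.17 to 2.63 FPKM in old P311-/-, 2.06 to 2.45 FPKM in old wild type and 1.45 to 1.88 FPKM in young wild type, so both old groups lay above the young range. The part of these markers in the Dll4 values was not tested.

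Neither Jag1 nor Dll1 passed the test, and the intervals of Dll1 were wide. Jag1, a Jagged ligand of several vascular and stromal cells, stood at 2.64, 1.97 and 2.51 FPKM in old P311-/- replicates 1 to 3, at 2.23, 2.68 and 2.40 FPKM in old wild type and at 1.59, 2.62 and 2.64 FPKM in young wild type. The groups overlapped, and the 95% intervals of the log2 fold changes were -0.52 to 0.43 for old P311-/- against old wild type and -0.35 to 0.60 for old against young wild type; without replicate 1 the first fold change was -0.12 in place of -0.044. Dll1, a Delta-like ligand of muscle precursor cells, stood at 2.63, 1.80 and 2.22 FPKM in old P311-/- replicates 1 to 3, at 2.01, 1.87 and 4.18 FPKM in old wild type and at 2.08, 2.18 and 2.07 FPKM in young wild type. Old wild-type replicate 3 was the only library above 2.63 FPKM, and without it the log2 fold change of old against young wild type was -0.12 in place of 0.24. The 95% intervals were -0.81 to 0.43 for old P311-/- against old wild type, where the fold change was -0.19 (-0.31 without old P311-/- replicate 1), and -0.38 to 0.86 for old against young wild type. Of the annotated exon bases of Dll1, 20.5% overlap the opposite-strand transcript A930024N18Rik, which stood at 0.377 FPKM in that library and at most 0.602 FPKM in any, and the use of strand in counting is not given.

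The target genes differed from each other in pattern, and none passed the test. Heyl, a Hey family repressor found in mural cells and satellite cells, stood at 2.75, 1.71 and 2.16 FPKM in old P311-/- replicates 1 to 3, at 1.92, 2.11 and 2.66 FPKM in old wild type and at 3.37, 3.42 and 2.67 FPKM in young wild type. The wild-type groups were separated only by 2.66 against 2.67 FPKM, and old P311-/- replicate 1 lay within the young range. The log2 fold change was -0.49 for old against young wild type (SE 0.20, limma adjusted p = 0.164) and -0.51 for old P311-/- compared with young muscle (SE 0.20, limma adjusted p = 0.192). Without old P311-/- replicate 1 the second was -0.68 and passed (limma adjusted p = 0.0417), beside 19.6% of all genes. Over the 9 libraries Heyl and Notch2 were the most alike pair among the 10 genes, with a root mean square difference of 0.14 between log2 values centred on each gene.

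Hey1, a Hey family repressor of endothelial and other cells, stood at 1.76, 1.88 and 1.48 FPKM in old P311-/- replicates 1 to 3, at 1.51, 1.79 and 2.35 FPKM in old wild type and at 1.38, 2.13 and 1.24 FPKM in young wild type. All groups overlapped, and the 95% interval for old against young wild type was -0.28 to 0.78. Old P311-/- against old wild type gave -0.12 (-0.14 without replicate 1). Hes1 stood at 8.26, 8.18 and 8.27 FPKM in old P311-/- replicates 1 to 3, at 8.85, 9.21 and 9.18 FPKM in old wild type and at 9.27, 7.69 and 6.76 FPKM in young wild type. The old P311-/- libraries lay below the old wild-type ones by a log2 fold change of -0.14 (SE 0.13, limma adjusted p = 0.596; 95% interval -0.42 to 0.14; -0.14 also without replicate 1), and the young libraries spread across both. Of all tested genes, 7.71% varied less than Hes1 over the 9 libraries, on the log2 scale.

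**Figure D3:**
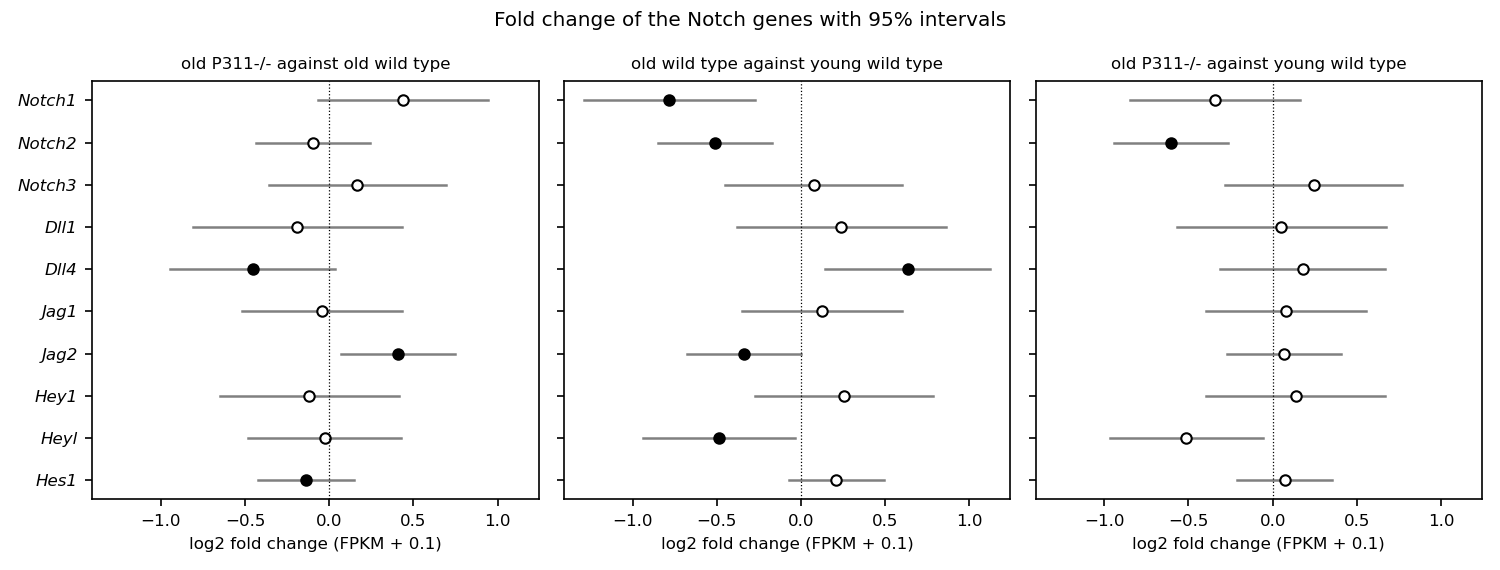
Log2 fold change (horizontal axis, on FPKM plus a pseudocount of 0.1) of each gene in the 3 comparisons, with 95% intervals from limma; filled points mark genes whose libraries do not overlap between the groups. No gene passed an adjusted p under 0.05. Notch1, Notch2, Jag2 and Heyl are filled to the left and Dll4 to the right in old against young wild type.

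By limma, none of the 10 genes passed an adjusted p under 0.05 in any comparison. For old P311-/- against old wild type, 0 of 10 passed beside 0.0703% of the 14233 genes tested (0.0141% higher and 0.0562% lower), and 1 (Jag2) had an unadjusted p under 0.05, beside 16.1% of all genes. The groups did not overlap for 3 of 10 (Jag2 higher, Dll4 and Hes1 lower), beside 18.0% of all genes (8.64% higher and 9.39% lower). For old against young wild type, 0 of 10 passed beside 5.40% of all genes (3.39% higher and 2.01% lower), and 4 (Notch1, Notch2, Heyl and Dll4) had an unadjusted p under 0.05, beside 26.3%. Here the groups did not overlap for 5 of 10, 1 higher (Dll4) and 4 lower (Notch1, Notch2, Jag2 and Heyl), beside 37.1% of all genes (19.0% higher and 18.1% lower). For old P311-/- against young wild type, 0 of 10 passed beside 0.400% of all genes (0.155% higher and 0.246% lower), and 2 (Notch2 and Heyl) had an unadjusted p under 0.05, beside 21.4%, while the groups did not overlap for 1 (Notch2, lower), beside 23.5%. With limma voom on recovered reads 0, 1 and 0 genes passed in these comparisons, the 1 being Notch1 (log2 fold change -0.87, limma adjusted p = 0.0303). The median log2 fold change of the 10 genes was -0.069, 0.099 and 0.069 in the same order, and that of all tested genes -0.0039, 0.0050 and 0.014.

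Notch1 and Notch2 stood near the threshold between old and young wild type. Both passed with library quality weights (log2 fold changes of -0.76 and -0.52) and without old P311-/- replicate 1, which leaves their fold changes as they are and alters only the shared spread (limma adjusted p = 0.0452 and 0.0273). Over all 14233 genes, calls in this comparison also rose, from 768 to 2290 with the weights and to 1755 without that library. Notch1 and Notch2 are long genes, 14232 and 10782 bases as deposited. With the trend with gene length removed their log2 fold changes were -0.62 and -0.38 (limma adjusted p = 0.129 and 0.186). The median log2 fold change of all genes under total-count scaling was -0.12 for old against young wild type.

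Of 62 other genes of the pathway, 52 could be tested. Old against young wild type gave 1 call among them (Psenen, higher), which is 1 of 52 beside 5.40% of all genes, and the other comparisons gave 0 by limma (0 and 1 by limma voom). At an unadjusted p under 0.05 there were 4 in old P311-/- against old wild type, 18 in old against young wild type and 14 in old P311-/- compared with young muscle, beside 16.1%, 26.3% and 21.4% of all genes. Against a median near 0 for all genes, the 52 had a median log2 fold change of -0.19 in old against young wild type, with 36 below 0, and of 0.029 in old P311-/- against old wild type. Psenen, a subunit of gamma-secretase, stood at 42.1 ± 2.997 FPKM in old P311-/-, 51.3 ± 2.72 FPKM in old wild type and 32.6 ± 1.43 FPKM in young wild type (SD, n = 3 each). It rose in old against young wild type by 0.65 on the log2 scale (SE 0.11, limma adjusted p = 0.0307). This call was lost without any 1 of old wild-type replicates 2 and 3 or of the young libraries (limma adjusted p = 0.0589 to 0.118).

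**Figure D4:**
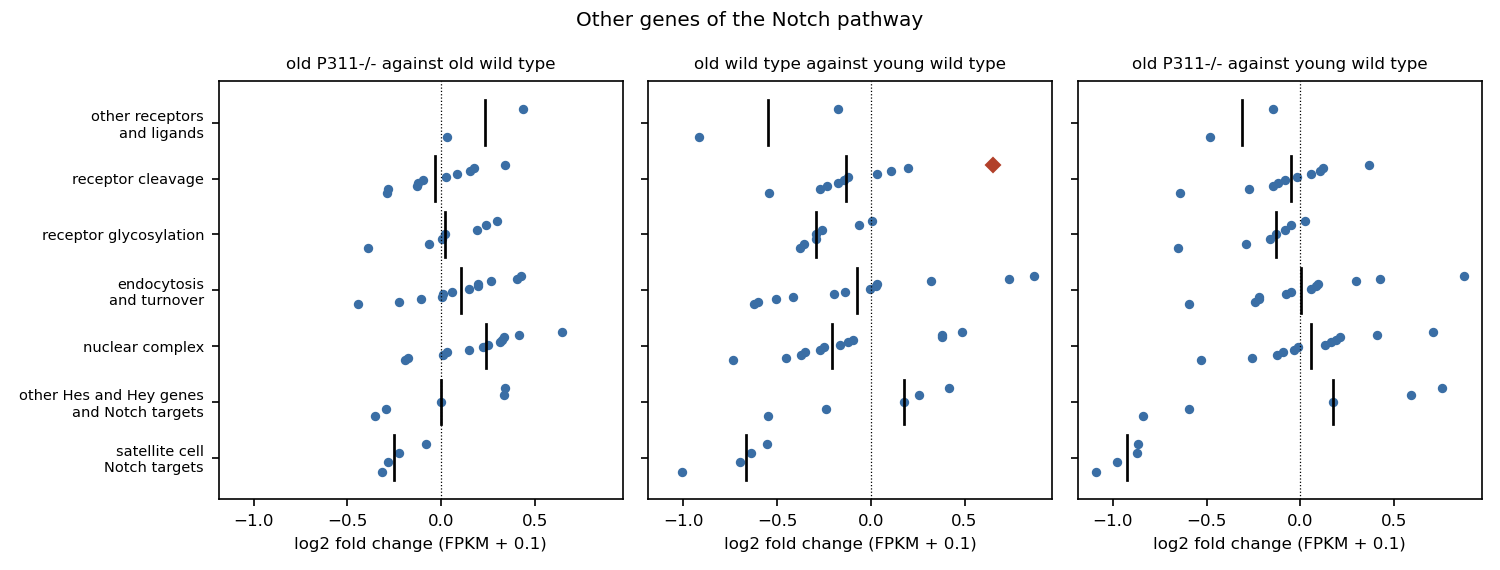
Log2 fold change (horizontal axes, on FPKM plus a pseudocount of 0.1) of the 52 other tested genes of the Notch pathway, by list, in the 3 comparisons; a red diamond passed an adjusted p under 0.05 by limma, and black bars are list medians. The diamond is Psenen, higher in old against young wild type.

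The nuclear complex list held 12 tested genes with a median log2 fold change of 0.24 in old P311-/- against old wild type and -0.21 in old against young wild type, comparisons that share the old wild-type libraries. Spen, a co-repressor that binds RBPJ, had 0.64 in the first (limma adjusted p = 0.253) and -0.74 in the second (limma adjusted p = 0.0563). Ep300, an acetyltransferase and co-activator, had 0.42 in the first (limma adjusted p = 0.260), and Snw1, a co-activator of the receptor intracellular domain, had 0.38 in the second (limma adjusted p = 0.0786). Rbpj itself stood at 4.58 ± 0.274 FPKM in old P311-/-, 4.58 ± 0.690 FPKM in old wild type and 5.52 ± 0.519 FPKM in young wild type (SD, n = 3 each), and both old groups lay below the young one without passing. In old P311-/- against young wild type the smallest p in this list belonged to the acetyltransferase gene Kat2b and the co-repressor gene Cir1, with log2 fold changes of 0.71 and 0.41 (limma adjusted p = 0.125 and 0.193).

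For receptor cleavage, 10 genes were tested, and Psenen was the single call. Adam17, a protease that sheds the receptor ectodomain, had -0.55 in old against young wild type and -0.64 in old P311-/- against young wild type (limma adjusted p = 0.0939 and 0.119). Furin, which cuts the receptor precursor, had 0.34 in old P311-/- against old wild type (limma adjusted p = 0.326), where Psenen had -0.29. For receptor glycosylation the median of 7 genes was -0.29 in old against young wild type, with 0 passing by limma (2 of 7 at an unadjusted p under 0.05, beside 26.3% of all genes). Those 2 were Pofut1, which adds fucose to the receptor, at -0.35, and the fringe gene Rfng at -0.38, and another fringe gene, Lfng, had -0.65 in old P311-/- against young wild type, followed by the xylosyltransferase gene Gxylt1 at -0.29. Rfng and Pofut1 had 0.30 and 0.19 in old P311-/- against old wild type.

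Among 12 tested genes of ligand endocytosis and receptor turnover, 0 passed by limma (0, 5 and 2 at an unadjusted p under 0.05, beside 16.1%, 26.3% and 21.4% of all genes, in old P311-/- against old wild type, old against young wild type, and old P311-/- against young). Mib1, a ubiquitin ligase that acts on the ligands, stood at 11.1 ± 2.65 FPKM in old P311-/-, 11.2 ± 3.19 FPKM in old wild type and 5.93 ± 0.390 FPKM in young wild type (SD, n = 3 each), with a log2 fold change of 0.87 in each old group against young (limma adjusted p = 0.115 for old P311-/- and 0.0604 for old wild type). Fbxw7, a ubiquitin ligase subunit that targets the receptor intracellular domain, had 0.74 in old against young wild type (limma adjusted p = 0.0647) and -0.44 in old P311-/- against old wild type. Neurl1a, another ligand ubiquitin ligase, had 0.43 in old P311-/- against old wild type, and Dtx4, a Deltex gene, had -0.59 in old P311-/- against young wild type, with neither passing.

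Collagen genes that are targets of Notch in mouse satellite cells were lower in both old groups than in young muscle, with none passing by limma. All 4 tested, Col5a1, Col5a3, Col6a1 and Col6a2, were lower in each old library than in any young one, and their median log2 fold change was -0.67 in old and -0.92 in old P311-/-, each against young wild type. Of all genes, 18.1% were lower with no overlap in old against young wild type and 12.0% in old P311-/- against young. Col5a1 stood at 23.6 ± 9.77 FPKM in old P311-/-, 23.7 ± 3.02 FPKM in old wild type and 48.1 ± 10.7 FPKM in young wild type (SD, n = 3 each), with limma adjusted p = 0.106 and 0.0629 against young for old P311-/- and old wild type. Col5a3 had -0.98 and -0.70 (limma adjusted p = 0.0779 and 0.0810). Fibroblasts also make these collagens, and fibro-adipogenic progenitor markers (0 of 6 passing by limma) summed to 373 to 462 FPKM in old P311-/-, 367 to 618 FPKM in old wild type and 500.2 to 584 FPKM in young wild type, so old P311-/- lay below young in that sum. All 6 were below 0 in old P311-/- against young (median log2 fold change -0.53). Of these, 4 had an unadjusted p under 0.05, beside 21.4% of all genes, and 4 were lower with no overlap, beside 12.0%. In old against young wild type 5 of 6 were below 0 (median -0.35). At that threshold there were 2, beside 26.3% of all genes, and 1 was lower with no overlap, beside 18.1%. The part of these markers in the collagen values was not tested. Col6a1 and Col5a3 had -0.32 and -0.28 in old P311-/- against old wild type. The satellite cell gene Calcr was under the filter, at 0.0423 to 0.861 FPKM.

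Of the other Hes and Hey genes and Notch targets, 5 of 10 could be tested, and Hes2, Hes3, Hes5, Hes7 and Hey2 stood at no more than 0.351 FPKM in any library. None passed by limma (0, 0 and 3 of 5 at an unadjusted p under 0.05 in the order used above, beside the shares of all genes given there). Ccnd1, a cyclin gene, had -0.84 in old P311-/- against young wild type and -0.55 in old against young wild type, and Myc had 0.59 and 0.26. In old P311-/- against old wild type they had -0.29 for Ccnd1 and 0.33 for Myc. Dlk1, a non-canonical ligand, ranged from 1.28 to 12.2 FPKM within old P311-/-, from 2.76 to 4.80 FPKM within old wild type and from 5.28 to 9.37 FPKM within young wild type, with no difference past the threshold.

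Without old P311-/- replicate 1 more pathway genes passed, beside 13.2% of all genes called against old wild type and 19.6% against young wild type. Against old wild type 3 of the 52 passed by limma: Neurl1a at 0.69 (limma adjusted p = 0.0123), Fbxw7 at -0.65 (limma adjusted p = 0.0441) and Col6a1 at -0.63 (limma adjusted p = 0.0216). Spen and Ep300 had 0.67 and 0.47 there and did not pass. Against young wild type 12 of the 52 passed, 4 higher and 8 lower. The higher ones were Mib1 at 1.08, Kat2b at 0.95, Neurl1a at 0.68 and Psenen at 0.43. For Psenen the limma adjusted p was 0.0211, in place of 0.127 with replicate 1. Among the lower ones were Adam17 at -0.81, Dtx4 at -0.84, Ccnd1 at -1.11 and all 4 collagen genes (-1.40 for Col5a1 and -1.23 for Col5a3). In the same refit 2 of 6 fibro-adipogenic progenitor and 5 of 9 macrophage markers also passed as lower against young wild type. So did 1 of 7 pericyte and smooth muscle and 1 of 8 satellite cell markers. Passing as higher there were 3 of 8 muscle fibre and 1 of 4 Schwann cell markers. Against old wild type 4 of 8 muscle fibre and 1 of 4 Schwann cell markers passed as higher. So did 1 of 7 pericyte and smooth muscle and 1 of 8 satellite cell markers. Lower against old wild type were 2 of 9 macrophage and 1 of 8 satellite cell markers. The part of these cells in the pathway values was not tested.

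Summed markers of cells that carry these receptors and ligands mostly overlapped between groups, while some single markers did not. Pericyte and smooth muscle genes summed to 132 to 161 FPKM in old P311-/-, 129 to 190 FPKM in old wild type and 136 to 167 FPKM in young wild type. At an unadjusted p under 0.05 there were 2 (both lower), 3 (2 higher and 1 lower) and 0 of 8 satellite cell genes in old P311-/- against old wild type, old against young wild type and old P311-/- against young, beside 16.1%, 26.3% and 21.4% of all genes. These 8 genes summed to 30.1 to 38.4 FPKM in old P311-/-, 32.0 to 46.4 FPKM in old wild type and 28.7 to 35.04 FPKM in young wild type. Of that sum, Spry1, a signalling inhibitor gene, was at 9.41 to 14.4 FPKM in old P311-/-, 13.3 to 23.7 FPKM in old wild type and 10.2 to 12.3 FPKM in young wild type. Pax7, the defining transcription factor, stood at 0.802 to 1.41 FPKM in old P311-/-, 0.762 to 0.905 FPKM in old wild type and 1.07 to 1.51 FPKM in young wild type. It was lower in every old wild-type library than in any young one (log2 fold change -0.59, limma adjusted p = 0.160), and its part in the Notch1 values was not tested. The list went both ways in old against young wild type: 3 of its 8 genes were above 0 and 5 below (median log2 fold change -0.083). Myf5, another transcription factor gene of the list, stood at 1.78 to 3.45 FPKM in old P311-/-, 3.19 to 4.73 FPKM in old wild type and 1.43 to 3.71 FPKM in young wild type. Macrophage genes, from cells that also express Notch1 and Notch2, summed to 676 to 1576 FPKM in old P311-/-, 1187 to 1728 FPKM in old wild type and 1452 to 2259 FPKM in young wild type. In these 3 lists, of 7, 8 and 9 tested genes, 0 passed by limma on all 9 libraries in any comparison. The macrophage list had 8 of 9 genes below 0 in old P311-/- against young wild type. Of these genes 7 had an unadjusted p under 0.05, beside 21.4% of all genes, and 4 were lower with no overlap, beside 12.0%. In old against young wild type 9 of 9 were below 0 (2 at that threshold, beside 26.3%, and 1 lower with no overlap, beside 18.1%). The part of the macrophage list in the Notch1 and Notch2 values was not tested.

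Outside the pathway, the genes whose pattern over the 9 libraries was closest to each member were found by the root mean square difference of centred log2 values. They were Phc2 for Notch1 (0.10), Tubb5 for Notch2 (0.071), Tshz3 for Notch3 (0.15), Smug1 for Dll1 (0.16) and Zfp942 for Dll4 (0.11). For the others they were Scyl3 for Jag1 (0.068), Clstn1 for Jag2 (0.062), Ncam1 for Hey1 (0.086), Grb10 for Heyl (0.054) and Dusp22 for Hes1 (0.053). For comparison, the median difference between a member and all tested genes ran from 0.32 for Hes1 to 0.48 for Notch1.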

How the data were processed

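RNA of injured tibialis anterior was sequenced from poly-A RNA in 9 libraries. The submitters' processing notes name HISAT2 2.2.1, featureCounts 2.1.1, DESeq2 1.42.0 and the build mm39; neither options nor use of strand is given there. Gene positions in the deposited table were identical to GENCODE M21 (GRCm38) for 98.3% of shared identifiers. The authors deposited FPKM values and gene lengths in bases, per the file headers. Multiplying FPKM by length and by 1 factor for each library yielded whole reads in 100% of cases (tolerance 0.001); these factors show that library sizes were scaled before deposit. These reads served for depth, the filter and voom.

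Groups came from sample titles. Testing used limma 3.58.1 (R 4.3.3), trended and robust, on log2 of FPKM plus 0.1, all 9 libraries in 1 fit, for genes with at least 0.5 FPKM and at least 10 reads, each in at least 3 libraries (14233 genes). Benjamini-Hochberg adjustment ran over all of them, with 0.05 as the limit for a call. Fold changes are first group over second and understate low genes. SD is over 3 libraries. The fit was tested on simulated data with the same spread setting for every gene and no outlying library. It was not tested on data with a library like old P311-/- replicate 1. Members and lists were chosen with earlier results of these data known; 1 listed gene is not reported here and was left out of the list counts. The text names all 10 members, the called genes of 7 pathway lists and the 2 of smallest p per list and comparison; Rbpj, Calcr, Col6a2 and genes under the filter were named beyond that rule after their values were seen. Alternatives were another pseudocount, no filter, total-count scaling, voom, library weights, 6-library fits, removal of the trend with gene length, the replicate block and leaving out each library, with the tested genes kept.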

Additional observations from a re-analysis of the deposited data

How the results depend on the processing

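Of 510 refitted values of the 10 genes (17 alternatives), 472 kept their direction and side of the threshold, 11 gained a call and 27 changed sign; none lost a call, since none had one. Counts of calls are given below in the order old P311-/- against old wild type, old against young, and old P311-/- against young, and the cause of the shifts was not tested. Among the 10 genes, library weights gave 1, 2 and 2 calls (Jag2, Notch1 and Notch2, Notch2 and Heyl) and 6-library fits 0, 1 and 0; leaving out 1 library gave 0 to 0, 0 to 2 and 0 to 2, with every call without old P311-/- replicate 1. Among the 52 other pathway genes, voom gave 0, 5 and 1, weights 5, 12 and 13, 6-library fits 0, 11 and 0, and leaving out 1 library 0 to 3, 0 to 12 and 0 to 12 (highest each time without old P311-/- replicate 1); old against young wild type had 0 with no filter, in place of 1. The call of Psenen was also lost with the length trend removed (0.46, limma adjusted p = 0.0620). Over all genes there were 10, 768 and 57 calls; leaving out 1 library gave 4 to 1875, 0 to 1755 and 4 to 2785 (highest each time without old P311-/- replicate 1), weights 2720, 2290 and 3173, and 6-library fits 6, 1653 and 12. Old P311-/- compared with young muscle had other counts: a pseudocount of 1 gave 87, no filter 23, total-count scaling 34 and voom 139. For old against young wild type no filter gave 5, total-count scaling 346 (27.8% higher, against 62.8%) and length-trend removal 419.

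Replicate numbers did not pair the libraries: deviations of same-numbered libraries correlated at -0.10 to 0.15 across genes, and a library correlated best with its own number in 4 of 18 cases. With the replicate block the calls were 4, 0 and 5 over all genes and 0 among the pathway genes in old against young wild type.

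Total-count scaling turned the sign of uncalled values, to -0.055 for Notch3 and -0.0057 for Jag1 in old against young wild type, and to -0.087 for Dll1, -0.059 for Jag1, -0.074 for Jag2, -0.00010 for Hey1 and -0.073 for Hes1 in old P311-/- against young wild type. Leaving out 1 library also crossed 0. In old P311-/- against old wild type the ranges were -0.24 to 0.0089 for Notch2, -0.043 to 0.37 for Notch3, -0.39 to 0.17 for Dll1, -0.12 to 0.080 for Jag1, -0.26 to 0.044 for Hey1 and -0.19 to 0.14 for Heyl. In old against young wild type they were -0.065 to 0.26 for Notch3, -0.12 to 0.44 for Dll1 and -0.11 to 0.24 for Jag1. In old P311-/- against young wild type they were -0.075 to 0.18 for Dll1, -0.038 to 0.40 for Dll4, -0.15 to 0.20 for Jag1, -0.071 to 0.16 for Jag2, -0.0091 to 0.36 for Hey1 and -0.035 to 0.19 for Hes1. Without old P311-/- replicate 1, Dlk1 and Notch4 turned to -0.25 and -0.060 in old P311-/- against old wild type. The alternatives for Psenen, and those for other pathway genes and lists without old P311-/- replicate 1, were added after their values were seen.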
